A study of Homo sapiens with 9 samples.

Results

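Mitochondrial ribosomal proteins were followed in SKMEL28 cells, an established human melanoma line, after knockdown of p16 with or without knockdown of ATR. The genes were taken by symbol alone, MRPL or MRPS followed by a number and at most a letter from A to C, with no use of measured values. 77 of the 48162 rows of the deposited tables met this rule, 47 named MRPL and 30 named MRPS, and they carried 76 symbols because MRPS17 had 2 rows. 74 of the 77 passed the filter on low counts, which 15776 genes passed in all.

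RNA was sequenced from 9 libraries, 3 per group. Cells of the shCont group carried a hairpin against GFP, those of the shp16 group a hairpin against p16, the cell cycle inhibitor encoded by CDKN2A, and those of the shp16+shATR group hairpins against both p16 and ATR, a kinase of the DNA damage response. All cells were transduced with lentivirus and selected with puromycin at 1 µg/ml for 3 days, so selection was shared by the control group. Which ATR hairpin was used for sequencing, and whether shp16 cells also received a control virus, are not given in the sources used here. Nothing there says that the 3 libraries of a group came from separate infections. For LSS mRNA after ATR knockdown, the paper describes technical replicates of a single experiment. Its methods give RNA sequencing and no other mRNA assay, but whether those replicates are these libraries is not stated. All p-values below therefore measure the spread between these libraries, which may be only technical, and they do not extend to new infections.

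The mitochondrial ribosome (mitoribosome) translates the mRNAs encoded by mitochondrial DNA, all of which specify subunits of the respiratory chain and ATP synthase. Its proteins are all encoded in the nucleus, made in the cytosol and imported, and assemble with the mitochondrial rRNAs into a small and a large subunit. Some are descendants of bacterial ribosomal proteins, and others are found only in mitoribosomes. The prefixes MRPS and MRPL name the small and the large subunit, but MRPS30 and MRPS18A sit in the large subunit, and the product of MRPS36 is a component of the oxoglutarate dehydrogenase complex.

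The targeted genes were read first. CDKN2A stood at 162, 113 and 103 CPM (counts scaled to a common library size with TMM factors) in shCont replicates 1, 2 and 3, at 78.1, 93.5 and 99.9 in shp16, and at 82.6, 90.0 and 82.4 in shp16+shATR. Every knockdown library was below every shCont library, although the log2 fold change of shp16 against shCont, -0.48 ± 0.16 (SE), missed the threshold (adjusted p = 0.0723). ATR stood at 93.5, 83.4 and 85.6 CPM in shp16 and at 39.9, 40.0 and 41.0 in shp16+shATR, a log2 fold change of -1.12 ± 0.22 (SE; adjusted p = 0.0128). In the library labelled shCont replicate 1, however, ATR was at 45.9 CPM, against 93.5 and 96.4 in replicates 2 and 3, so this library was near the ATR knockdown level while its CDKN2A was the highest of all. Its ATR value goes against its label. Some other genes, picked after their values were seen, stood near replicates 2 and 3. KRT5, a keratinocyte keratin, was at 0 in all 3, and at 0.359 to 2.99 CPM in the libraries with the p16 hairpin. The rRNA methyltransferase NSUN4 stood at 33.0 CPM against 33.0 and 32.0, and the pigment enzyme TYRP1 at 121 against 136 and 145. In shp16+shATR they ran from 25.1 to 27.7 and from 52.7 to 55.5. Whether this library is an shCont library is in doubt and was not tested. It is called shCont replicate 1 below by its label only, and every fold change against shCont with all 9 libraries rests in part on it.

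Library totals ran from 17314662 to 23588174 counts. The library labelled shCont replicate 1 stood apart from the others of its group: the chi-square per degree of freedom over genes was 68.5 and 83.4 against replicates 2 and 3, which differed from each other by 5.15. The shp16 replicate 1 library also stood apart, at 37.9 and 37.2 against its group. Its summed melanoma markers were at 7769 CPM against 12840 to 13020 in replicates 2 and 3. Among these markers PMEL stood at 3260 CPM there against 7840 and 7760. MITF was higher, at 824 against 689 and 669, and the other markers were lower by less than PMEL. No pair of libraries agreed within sampling noise, for which the value is 1, the closest pair being shp16 replicates 2 and 3 at 1.94. All 8 melanoma and melanocyte markers passed the filter. Of these S100B, at 489 to 717 CPM in shCont, 307 to 380 in shp16 and 540 to 582 in shp16+shATR, was lower in shp16 than in shCont (log2 fold change -0.68, adjusted p = 0.013), and the pigment enzyme TYRP1 was lower in shp16 (-0.43, 0.0228) and in shp16+shATR (-1.31, 1.41e-05). Of 9 markers of other cell types CD3E and PTPRC of leukocytes were at 0 in every library. The other-cell markers summed to 33.6 to 44.1 CPM in shCont, 34.2 to 50.0 in shp16 and 34.8 to 38.7 in shp16+shATR, mostly from LUM. The keratinocyte keratins KRT14 and KRT5 rose in shp16, KRT14 from a mean of 0.0514 CPM in shCont to 2.38 (adjusted p = 0.000388) and KRT5 from 0 in every shCont library to 2.03, 2.99 and 2.05 CPM (0.00123). Both were also higher in shp16+shATR than in shCont, at means of 2.06 and 1.40 CPM (edgeR adjusted p = 0.000331 and 0.00184). DCN was higher there too, at a mean of 0.800 CPM against 0.182 (0.0266). The part of these differences in the results below was not tested. In bulk RNA, fewer cells of a kind and less RNA per cell cannot be told apart.

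The 77 rows together took 0.442% of the counts of shCont replicate 1 and 0.348% and 0.336% of those of replicates 2 and 3. The share was 0.362% to 0.374% in shp16 and 0.344% to 0.347% in shp16+shATR. Summed over the rows, mitoribosomal CPM was 4603 in shCont replicate 1 and 3357 and 3330 in the other two, 3643 to 3859 in shp16, and 3401 to 3527 in shp16+shATR. The shp16+shATR libraries lay below all shp16 libraries, the ratio of the means being 0.930, whereas the shCont libraries spanned both groups. Small-subunit and large-subunit names gave the same picture, with MRPS rows at 1446 to 1510 CPM in shp16 against 1364 to 1391 in shp16+shATR and MRPL rows at 2192 to 2349 against 2037 to 2136.

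**Figure D1:**
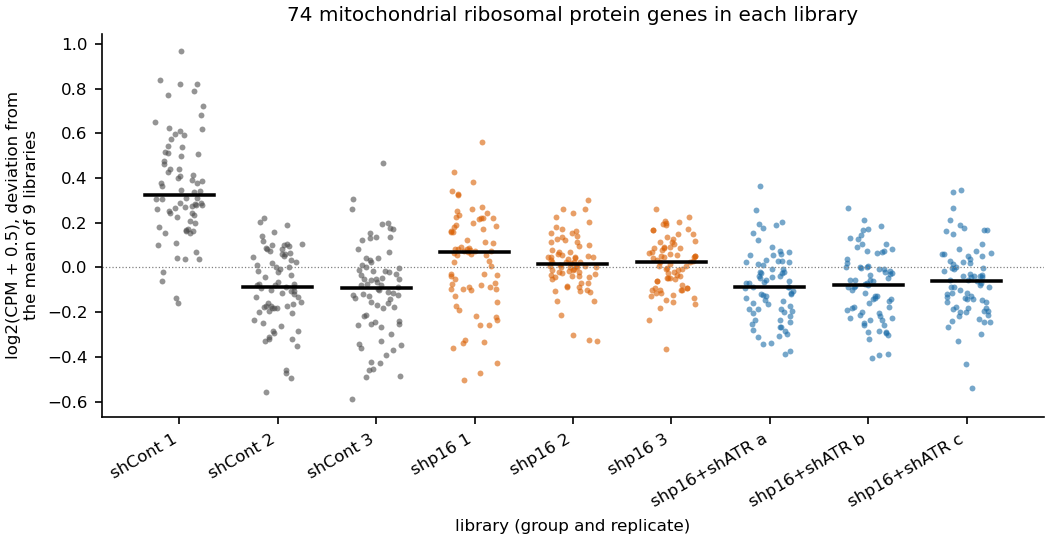
Deviation of each of the 74 tested members from its own mean over the 9 libraries, as log2(CPM + 0.5), by library. Points are genes and black bars their medians, which lie at 0.32 in shCont 1, at -0.09 in shCont 2 and 3, at 0.02 to 0.07 in the shp16 libraries and at -0.08 to -0.06 in the shp16+shATR libraries.

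The plot of deviations by library shows that shCont replicate 1 was the library in which most members peaked. It was above both other shCont libraries for 68 of 74 members (91.9%) and below both for 2, against 43.4% above and 43.8% below over all genes tested. 54 members (73.0%) had their highest CPM of all 9 libraries there, and 27.2% of all genes did. The median member was 1.40-fold its level in the other shCont libraries. Members are short transcripts, with a median gene length of 1699 bases in the deposited table against 3027 over all genes tested, and the same library was above both others for 61.0% of genes in the shortest of 3 equal length classes, 48.2% in the middle class and 21.0% in the longest. It was also above both for 75 of 77 cytosolic ribosomal protein genes. Because of this library each comparison of the members as a set is given with and without it below. For single genes and other lists this is done only where stated. The part of gene length in it was not tested beyond the fit with a length trend removed.

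Members spanned a wide range of levels, compared here in FPKM, which divides counts by gene length and library total. Over the 9 libraries the mean FPKM of the 77 rows ran from 0.0 to 150 with a median of 20.1, against a median of 5.63 over all genes tested, and 50 rows lay between 10 and 50. The highest was MRPL37, a mitochondria-specific protein of the large subunit, at 150 FPKM. MRPS34, a mitochondria-specific protein of the small subunit, followed at 106, then MRPL3 at 92.9, MRPL17 at 89.7 and MRPL23 at 88.0, all homologues of bacterial large-subunit proteins.

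The ranges of these genes over the libraries were compared, without pairing the values of a library. MRPL37 ran from 113 to 204 FPKM and MRPS34 from 79.0 to 134, so their ranges overlapped. MRPL3 ran from 85.6 to 104, MRPL17 from 74.6 to 127 and MRPL23 from 73.6 to 121. The ranges of the latter 3 overlapped too. Differences between genes within a library were not tested.

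The lowest rows were the second MRPS17 row (ENSG00000249773), at 0 counts in every library, MRPL30 at 0.0398 FPKM, MRPS24 at 0.106, MRPL38 at 0.914 and MRPL46 at 0.947. The first 3 are the rows left out by the filter. MRPL30 held 0 to 5 counts per library and MRPS24 0 to 8. MRPS24 is a homologue of a bacterial small-subunit protein, and MRPL30, MRPL38 and MRPL46 belong to the large subunit. In the deposited coordinates these 4 genes are covered to at least 95% by another row on the same strand, for example MRPL38 by RP11-552F3.12, MRPS24 by RP5-1165K10.1 and MRPL30 by C2orf15.

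8 member rows were covered in this way, MRPL30, MRPS24, MRPL38, MRPL46, MRPL12, MRPL53, the counted MRPS17 row and MRPS6, and 7 of them were under 4 FPKM (median of the 8, 1.40). Of the 69 other rows 2 were under 4 FPKM, the empty MRPS17 row and MRPS18C, and their median was 23.2. How the authors counted reads shared by overlapping rows is not given in the sources used here, so low values of the covered rows are uncertain as gene levels, and the part of the overlap was not tested. 46 of the 77 rows overlapped another row on either strand, and 6 were covered completely from the opposite strand, MRPL49 among them.

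**Figure D2:**
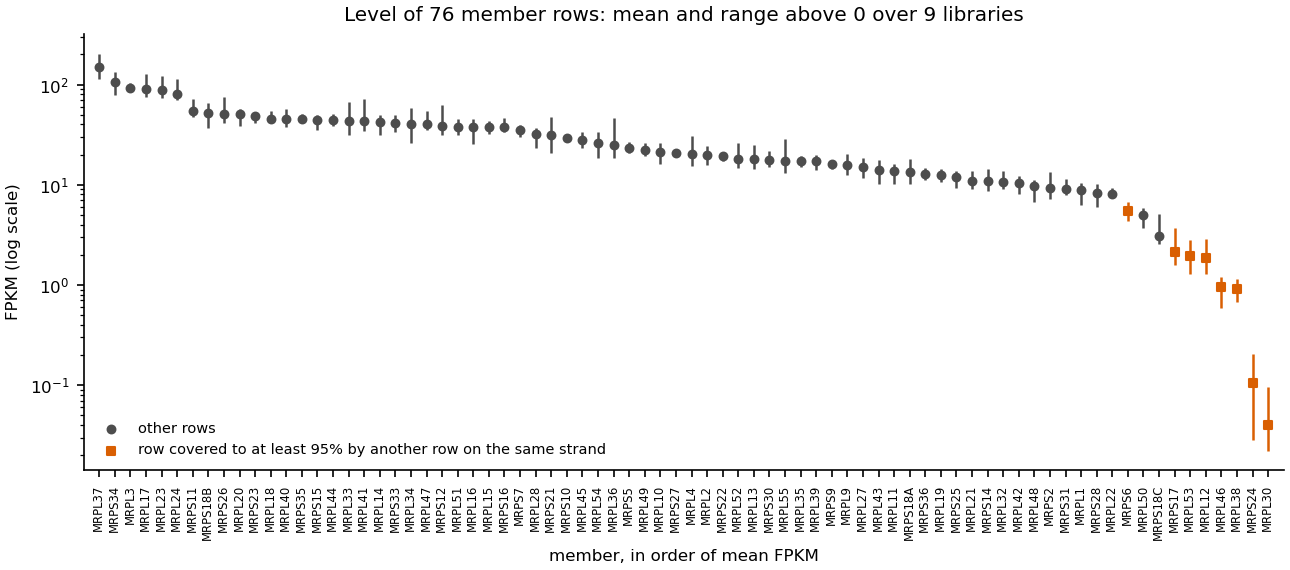
Mean FPKM (log scale) of the 76 member rows above 0, in descending order, with lines from the lowest value above 0 to the highest over 9 libraries. Orange squares mark the 8 rows covered to at least 95% by another row on the same strand, which lie at 5.50 FPKM and below, while MRPL37 leads at 150.

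Over all 9 libraries the median coefficient of variation of the 74 tested members was 15.8%, against 20.8% over all genes tested. It ran from 6.76% for MRPS10 to 35.7% for MRPL36, and without shCont replicate 1 the median was 11.3% against 17.3%. The median level was 20.1 FPKM over the 77 member rows and 5.63 over all genes tested. Genes of like level were not compared.

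Promoter windows of the members were searched for short sequences known for regulators of these genes. Windows from 250 bases before to 50 after each annotated start came from RefSeq (GRCh38.p14) and were matched by symbol for 67 of the 76 symbols, as 83 windows. 4 strings known for factors of mitochondrial gene expression were searched as exact letters on both strands, and a match describes letters and not a binding site. AAGATGGC, a core of the YY1 motif, was found in 23 of the 83 member windows (27.7%), against 4.59% of the 14670 windows of genes tested and 2.89% of all 35116. CCGGAAGT, the core bound by ETS factors such as GABPA, was in 16.9%, 7.08% and 4.14%. GCGCATGC, the core of the NRF1 motif, was in 7.23%, 4.57% and 3.05%, and the E-box CACGTG, bound by MYC among others, in 10.8%, 9.32% and 7.26%.

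Of the 12 members called in any comparison below, 11 had a window. 5 of them held the YY1 string (MRPL36, MRPL42, MRPS12, MRPS18B and MRPS30), MRPL53 the ETS string, MRPS33 an E-box in 1 of 2 windows, and 4 none of the strings (MRPL1, MRPL19, MRPL39 and MRPS14). The windows of 7 members are given here to show both kinds, 5 with the YY1 string, 1 with the ETS string and 1 with none, 5′ to 3′ from 120 bases before the start, up to the last motif where one lies after the start and otherwise up to the start. Capitals mark matches to the 4 strings or their reverse complements. MRPS18B lies at chr6:30617720-30617870 (plus strand), MRPL49, by its second annotated start, at chr11:65122201-65122351 (plus strand), MRPS30 at chr5:44808827-44808967 (plus strand), MRPL42 at chr12:93467394-93467529 (plus strand), MRPL36 at chr5:1799838-1799957 (minus strand), MRPL53 at chr2:74472681-74472800 (minus strand) and MRPL1 at chr4:77862710-77862829 (plus strand).
MRPS18B: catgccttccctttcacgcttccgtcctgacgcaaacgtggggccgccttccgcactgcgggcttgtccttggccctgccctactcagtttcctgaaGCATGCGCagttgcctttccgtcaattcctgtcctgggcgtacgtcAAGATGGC
MRPL49: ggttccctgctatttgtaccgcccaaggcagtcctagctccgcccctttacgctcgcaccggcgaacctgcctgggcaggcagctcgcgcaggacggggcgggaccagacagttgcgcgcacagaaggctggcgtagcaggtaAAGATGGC
MRPS30: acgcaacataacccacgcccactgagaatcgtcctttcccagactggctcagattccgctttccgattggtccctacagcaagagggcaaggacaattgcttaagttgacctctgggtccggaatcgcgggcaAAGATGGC
MRPL42: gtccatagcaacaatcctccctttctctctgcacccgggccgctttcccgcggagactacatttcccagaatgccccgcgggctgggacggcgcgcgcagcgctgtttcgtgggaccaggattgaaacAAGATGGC
MRPL36: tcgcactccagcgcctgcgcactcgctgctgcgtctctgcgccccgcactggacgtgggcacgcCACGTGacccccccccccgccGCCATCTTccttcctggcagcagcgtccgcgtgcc
MRPL53: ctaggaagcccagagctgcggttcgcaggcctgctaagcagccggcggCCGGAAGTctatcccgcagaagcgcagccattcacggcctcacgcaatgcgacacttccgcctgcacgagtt
MRPL1: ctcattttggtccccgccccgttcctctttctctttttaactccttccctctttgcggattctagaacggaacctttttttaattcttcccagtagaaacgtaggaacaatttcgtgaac
MRPS18B carries the NRF1 string in reverse complement ahead of the start and the YY1 string after it. MRPL49, MRPS30 and MRPL42 carry the YY1 string just after the start, and MRPL36 carries an E-box and the YY1 string in reverse complement ahead of it. MRPL53 carries the ETS string ahead of the start. Members with the YY1 string did not share a direction of change: MRPS18B was higher, MRPS30, MRPL42 and MRPL36 were lower in shp16+shATR than in shCont, and MRPL49 was called in no comparison. MRPL1, with none of the strings, was also lower.

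Many members started close to another gene. 29 of the 74 tested members (39.2%) had the start of a tested gene on the opposite strand within 1000 bases in the deposited coordinates, against 20.1% of all genes tested. MRPS11 and MRPL46, 1 member of each subunit, start 34 bases apart. MRPL36 starts 34 bases from NDUFS6 and MRPL47 36 bases from NDUFB5, both encoding subunits of respiratory complex I. NDUFS6 had a log2 fold change of -0.44 ± 0.20 (SE) in shp16+shATR against shCont (adjusted p = 0.139), beside -0.73 for MRPL36. It stood at 85.0 CPM in shCont replicate 1 against 51.1 and 44.4 in replicates 2 and 3. Without replicate 1 the edgeR values were -0.11 (adjusted p = 0.45) for NDUFS6 and -0.37 (0.0449) for MRPL36.

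MRPL49, a mitochondria-specific protein of the large subunit that marks the set (chr11:64889655-64894843 in the deposited coordinates, plus strand), was present in every library at a similar level. It stood at 59.9, 51.9 and 48.1 CPM in shCont, at 65.2, 64.4 and 59.7 in shp16, and at 53.2, 49.4 and 54.2 in shp16+shATR. The shp16 libraries overlapped shCont only through shCont replicate 1, and all 3 shp16+shATR libraries lay below all 3 shp16 libraries. No comparison of MRPL49 passed the threshold, with log2 fold changes of 0.24 ± 0.11 (SE; adjusted p = 0.163) for shp16 against shCont, -0.27 ± 0.11 (0.188) for shp16+shATR against shp16, and -0.03 ± 0.11 (0.880) for shp16+shATR against shCont. Without shCont replicate 1 the first was 0.33 (adjusted p = 0.0109) and the second -0.27 (0.0192). The whole MRPL49 row is covered by SYVN1 on the opposite strand, and without a stated strand setting the reads of the pair cannot be told apart.

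The first comparison asked what p16 knockdown did. 1 of 74 members rose, MRPS18B, and 1 fell, MRPL53, at an adjusted p under 0.05, where 7.23% of all genes tested were higher and 7.59% lower. 32 members were above 0 and 42 below, with a median log2 fold change of -0.03 against -0.02 over all genes. The groups' libraries did not overlap for 10 members (3 higher, 7 lower), beside 33.6% of all genes tested. The 95% intervals of 72 of the 74 lay within a 2-fold change either way, the exceptions being MRPL36 and MRPL53.

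MRPS18B encodes a mitochondria-specific protein of the small subunit and is the only member of the 3 mammalian S18 forms that was called (MRPS18B, chr6:30585486-30594172, plus strand). Its CPM was 74.5, 58.9 and 59.1 in shCont, 112, 92.6 and 88.3 in shp16, and 95.9, 87.5 and 94.9 in shp16+shATR. Every shCont library was below every library with the p16 hairpin. The log2 fold change of shp16 against shCont was 0.60 ± 0.13 (SE; adjusted p = 0.0095), or 1.52-fold, and that of shp16+shATR against shCont 0.53 ± 0.13 (adjusted p = 0.0116). Between shp16+shATR and shp16 the difference was -0.07, with a 95% interval from -0.35 to 0.21. With a replicate block the first value was 0.61 at an adjusted p of 0.0670, and without shp16+shATR library a the second was 0.51 at 0.0527. MRPS18A and MRPS18C had log2 fold changes of 0.10 and -0.45 in shp16 against shCont (adjusted p = 0.764 and 0.199).

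MRPL53, a mitochondria-specific protein of the large subunit, was counted at a low level. It stood at 3.36, 2.52 and 3.25 CPM in shCont, at 1.61, 1.66 and 1.80 in shp16 and at 1.85, 2.25 and 2.15 in shp16+shATR. The shp16 libraries were below all others. The log2 fold change of shp16 against shCont was -0.85 ± 0.22 (SE; adjusted p = 0.024), from 31 to 76 counts per library. This row is covered to 97.9% by CCDC142 on the same strand, and the call was lost in 7 of 20 alternatives, among them without shCont replicate 3 (adjusted p = 0.0615) and without shp16 replicate 1, 2 or 3 (0.0628, 0.0784 and 0.0619).

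Leaving out shCont replicate 1 changed the picture for p16 knockdown. 17 members were then higher and 3 lower, beside 13.4% and 12.5% of all genes tested, and 51 of 74 were above 0 with a median log2 fold change of 0.10 against -0.01 over all genes. Both members called with all 9 libraries were among the 20. The median thus changed sign with 1 library. With the gene-length trend removed and all libraries kept, 5 members were higher and 2 lower and the median was 0.06.

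**Figure D3:**
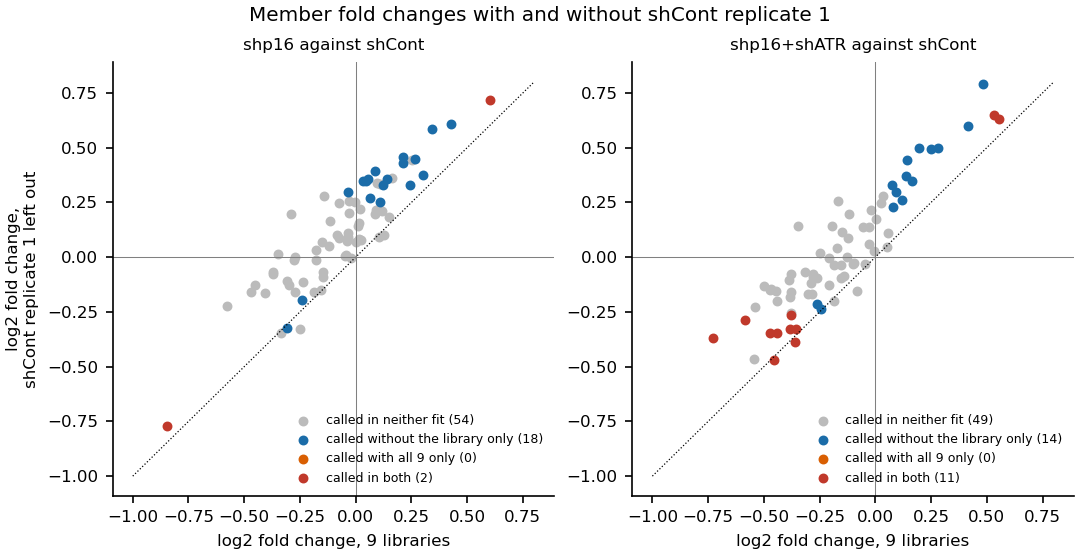
Log2 fold change of the 74 members with all 9 libraries (x axis) and with shCont replicate 1 left out (y axis), for shp16 (left) and shp16+shATR (right) against shCont. Most points lie above the dotted line of equality; 18 members on the left and 14 on the right are called only without the library, and none only with it.

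The second comparison asked what ATR knockdown added in p16 knockdown cells. 3 of 74 members fell and none rose, where 3.49% of all genes tested were lower and 2.73% higher. 51 members were below 0 and 23 above, with a median log2 fold change of -0.09 against 0.00 over all genes. The groups' libraries did not overlap for 29 members, 22 lower and 7 higher, or 39.2%, beside 37.7% of all genes tested. All 74 intervals lay within a 2-fold change either way.

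MRPL1, the homologue of the bacterial protein of the L1 stalk at the tRNA exit side of the large subunit, stood at 16.6, 14.3 and 15.2 CPM in shp16 and at 10.8, 10.9 and 9.58 in shp16+shATR, with 16.1, 13.9 and 12.5 in shCont. Its shp16+shATR libraries were below those of both other groups. The log2 fold change was -0.56 ± 0.14 (SE; adjusted p = 0.032) against shp16 and -0.44 ± 0.14 (0.0343) against shCont.

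MRPL42, a mitochondria-specific protein of the large subunit, stood at 33.4, 32.4 and 37.4 CPM in shCont, at 40.8, 34.4 and 37.5 in shp16 and at 27.9, 24.8 and 27.7 in shp16+shATR. MRPS33, a mitochondria-specific protein of the small subunit, stood at 43.7, 34.8 and 34.9 in shCont, at 39.4, 41.3 and 39.7 in shp16 and at 28.4, 28.5 and 30.4 in shp16+shATR. As with MRPL1, both were lowest in shp16+shATR without overlap. MRPL42 fell by 0.49 on the log2 scale against shp16 (SE 0.11; adjusted p = 0.0263) and MRPS33 by 0.46 (SE 0.11; adjusted p = 0.0343).

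Leaving out any single shp16 or shp16+shATR library left 0 members called by edgeR, with 5 to 8 at an unadjusted p under 0.05, beside 1.81% to 3.13% of all genes called. The log2 fold changes stayed at -0.61 to -0.50 for MRPL1, -0.55 to -0.43 for MRPL42 and -0.50 to -0.44 for MRPS33 in these 6 fits. With both libraries that stood apart left out, the 3 were called again (adjusted p = 0.00213, 0.00077 and 5.39e-05). DESeq2 on all libraries called 4 of 76, all lower, beside 2.58% lower and 2.07% higher of 30291 genes. These are all genes with any count, against 15776 in the main fit, and genes without an adjusted p count as not called. The shares of the 2 fits are therefore on unlike bases. Leaving out shCont replicate 1, which is in neither group and enters through the shared filter, scaling and estimate of spread, gave 2 higher and 13 lower, beside 8.94% and 11.0% of all genes tested, at a median of -0.08. With only the groups compared in the fit, 2 were higher and 12 lower, beside 8.2% and 10.7%.

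Other members of the large subunit had differences as large that were not called. MRPL37, the member with the highest level, stood at 344, 241 and 249 CPM in shp16 and 188, 176 and 206 in shp16+shATR, a log2 fold change of -0.55 ± 0.18 (SE; adjusted p = 0.0962). MRPS18A stood at 18.5, 15.4 and 15.4 against 11.5, 10.6 and 11.8, a log2 fold change of -0.54 ± 0.18 (SE; adjusted p = 0.105). In both the groups did not overlap.

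The third comparison set the double knockdown against the control. 2 of 74 members rose and 9 fell, where 10.9% of all genes tested were higher and 12.7% lower. 19 members were above 0 and 55 below, with a median log2 fold change of -0.18 against -0.02 over all genes. The groups' libraries did not overlap for 24 members, 3 higher and 21 lower, beside 41.5% of all genes tested. The comparison shares its shCont libraries with the first and its shp16+shATR libraries with the second.

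The 2 that rose were MRPS18B, above, and MRPL10, the homologue of the bacterial protein at the base of the ribosomal stalk (MRPL10, chr17:45900638-45908900, minus strand). MRPL10 stood at 38.3, 33.0 and 32.6 CPM in shCont, at 43.9, 43.5 and 40.8 in shp16 and at 50.5, 48.9 and 53.4 in shp16+shATR. The 3 groups followed each other without overlap. The log2 fold change of shp16+shATR against shCont was 0.56 ± 0.11 (SE; adjusted p = 0.00274), with 0.30 (adjusted p = 0.0756) for shp16 against shCont and 0.25 (0.196) for shp16+shATR against shp16. The call held in all 20 alternatives.

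Of the falls, MRPS30 was the most precisely measured (chr5:44809027-44820530, plus strand). It stood at 89.4, 88.5 and 94.0 CPM in shCont, at 80.5, 68.4 and 70.8 in shp16 and at 64.4, 65.2 and 68.8 in shp16+shATR. All knockdown libraries were below all shCont libraries, and shCont replicate 1 did not stand apart for this gene. The log2 fold change of shp16+shATR against shCont was -0.46 ± 0.10 (SE; adjusted p = 0.00721), with -0.31 (adjusted p = 0.0625) for shp16 against shCont, and the call held in all 20 alternatives.

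Without shCont replicate 1, all 9 falls were called again and 7 of them were smaller, the exceptions being MRPL42 and MRPS30. Those of MRPL36 and MRPS12 shrank by over 1.5 times. MRPL36, a short protein of bacterial type in the large subunit, stood at 38.1, 20.1 and 21.1 CPM in shCont, at 20.0, 15.2 and 18.0 in shp16 and at 14.6, 15.7 and 17.7 in shp16+shATR. MRPS12, the homologue of the bacterial protein of the decoding centre, stood at 80.0, 50.1 and 44.4 in shCont, at 48.3, 42.9 and 43.7 in shp16 and at 38.6, 37.7 and 40.1 in shp16+shATR. Their log2 fold changes of shp16+shATR against shCont were -0.73 ± 0.22 (SE; adjusted p = 0.0352) and -0.58 ± 0.18 (0.0385). Without shCont replicate 1 they were -0.37 (adjusted p = 0.0449) and -0.29 (0.0232). SARS2 covers MRPS12 from the opposite strand.

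MRPS14, the homologue of a bacterial protein of the small subunit's head, stood at 31.5, 24.1 and 25.0 CPM in shCont, at 19.4, 25.0 and 24.0 in shp16 and at 19.7, 19.7 and 18.8 in shp16+shATR (log2 fold change against shCont -0.47 ± 0.14, SE; adjusted p = 0.0289). MRPL39, a mitochondria-specific protein of the large subunit, stood at 24.9, 21.9 and 22.5 in shCont, at 19.4, 22.1 and 21.2 in shp16 and at 16.7, 16.6 and 19.9 in shp16+shATR (-0.38 ± 0.12, SE; adjusted p = 0.0391). In both the shp16+shATR libraries lay below all shCont libraries and overlapped those of shp16. MRPL1, MRPL42 and MRPS33 were also called, and so was MRPL19, a homologue of a bacterial large-subunit protein, which is named after its values were seen, at a log2 fold change of -0.36 ± 0.11 (SE; adjusted p = 0.0373).

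**Figure D4:**
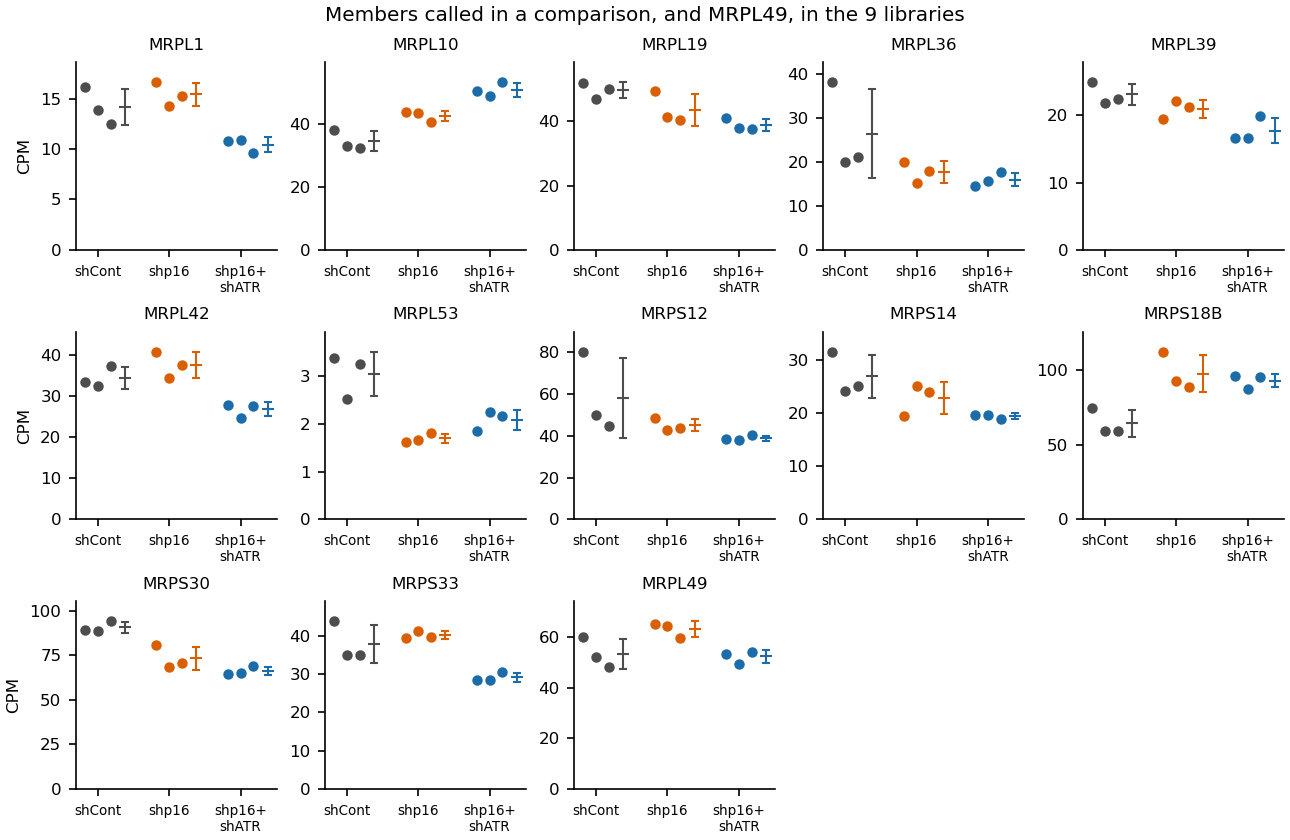
CPM in the 9 libraries of the 12 members called in at least 1 comparison, and of MRPL49. Points are libraries (replicates 1, 2, 3, or a, b, c, from left to right) and bars the mean ± SD of 3; MRPL10 climbs from shCont to shp16 to shp16+shATR, MRPS18B is lowest in shCont, and MRPL1, MRPL42 and MRPS33 are lowest in shp16+shATR.

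Without shCont replicate 1, 14 members were higher and 11 lower in shp16+shATR than in shCont, beside 15.9% and 17.5% of all genes tested, and the median was -0.03. The 11 members called with all libraries were among these 25. Leaving out single libraries of the other groups left between 2 and 10 members called, the lowest without shp16+shATR library a. Rows annotated as pseudogenes of the 12 called members held 0 to 14 counts over all libraries.

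**Figure D5:**
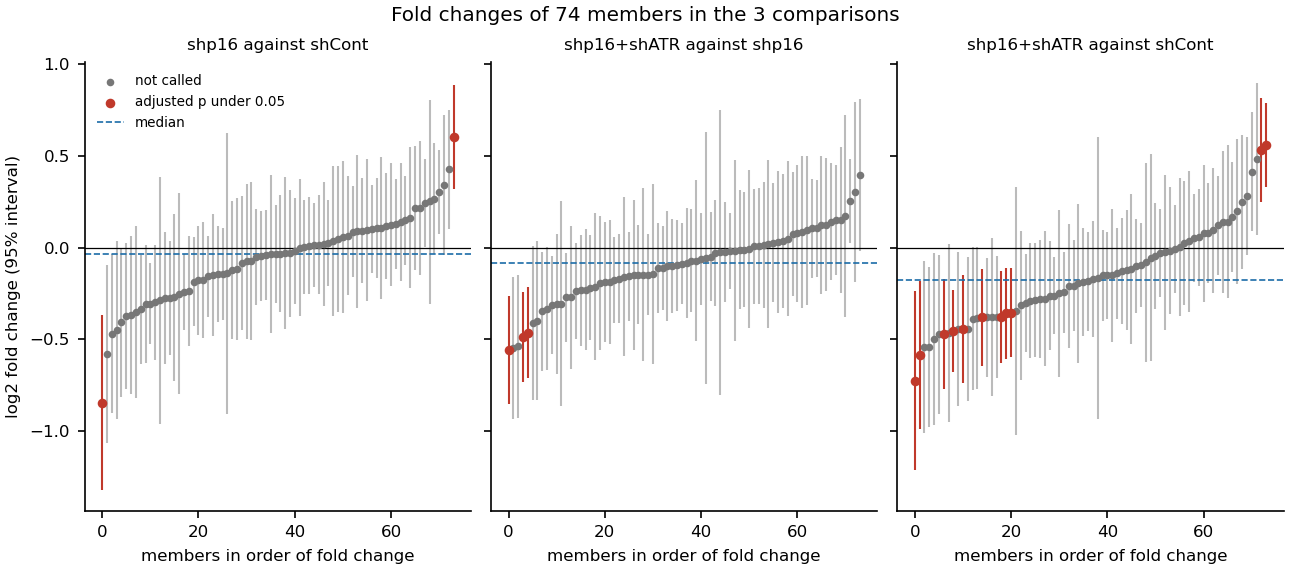
Log2 fold changes of the 74 members with 95% intervals in the 3 comparisons, each in ascending order. Red points passed an adjusted p of 0.05 (2, 3 and 11 members) and the dashed lines mark medians of -0.03, -0.09 and -0.18.

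The calls are given here by structural class, and differences between the classes were not tested. Of all genes tested, 14.8%, 6.22% and 23.6% were called in the 3 comparisons in the order above. Of 15 tested homologues of bacterial small-subunit proteins, 0, 0 and 2 were called. Of 10 mitochondria-specific small-subunit members, 1, 1 and 2 were called. Of 29 homologues of bacterial large-subunit proteins, 0, 1 and 4 were called, and of 19 mitochondria-specific large-subunit members 1, 1 and 3. The medians in shp16+shATR against shCont were -0.17, -0.07, -0.21 and -0.19 for the 4 classes. MRPS36, whose product is not a ribosomal protein, had log2 fold changes of -0.05, 0.10 and 0.06, its libraries overlapping in every comparison.

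Of 7 mitoribosomal proteins that carry other symbols, PTCD3, a small-subunit protein, was lower than in shCont both in shp16, at a log2 fold change of -0.42 ± 0.10 (SE; adjusted p = 0.0155), and in the double knockdown, at -0.38 ± 0.10 (0.0168). None of the 7 was called between shp16+shATR and shp16, where edgeR gave 0 at an unadjusted p under 0.05. With shCont replicate 1 left out PTCD3 was lower as before, AURKAIP1 was higher than in shCont in shp16 (0.39, adjusted p = 0.00622) and in shp16+shATR (0.49, 0.0011), and GADD45GIP1 was lower in shp16+shATR than in shp16 (-0.29, 0.0314). In that fit 25.9% of all genes tested were called in shp16 against shCont. The share was 19.9% in shp16+shATR against shp16 and 33.3% in shp16+shATR against shCont.

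Of 20 tested assembly and rRNA modification genes, 1 rose and 1 fell with p16 knockdown, 1 and 1 with added ATR knockdown, and 1 and 3 in the double knockdown against the control. These 2, 2 and 4 of 20 stand beside 14.8%, 6.22% and 23.6% of all genes tested that were called in either direction. Without shCont replicate 1, in the same order, 3 rose and 3 fell, 1 rose and 3 fell, and 2 rose and 4 fell. The shares of all genes were then 25.9%, 19.9% and 33.3%. NSUN4, an rRNA methyltransferase of mitoribosome assembly, stood at 33.0, 33.0 and 32.0 CPM in shCont, at 47.1, 45.8 and 44.0 in shp16 and at 27.7, 25.1 and 27.6 in shp16+shATR. TFB1M, which dimethylates the small-subunit rRNA, stood at 41.4, 32.1 and 31.4 in shCont, at 26.8, 27.0 and 28.2 in shp16 and at 47.5, 47.2 and 46.9 in shp16+shATR. The groups were separate for both genes, and in opposite order. NSUN4 changed by 0.48 ± 0.10 (SE; adjusted p = 0.00673) in shp16 against shCont and by -0.77 ± 0.10 (0.00141) in shp16+shATR against shp16, and TFB1M by 0.79 ± 0.12 (0.0036) in the latter, all log2 fold changes.

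MTERFD1, another assembly factor, fell by 0.42 in shp16 against shCont (adjusted p = 0.0498) and RBFA, the small-subunit assembly factor, by 0.55 in shp16+shATR against shCont (0.0491). RBFA stood at 17.3, 11.1 and 11.8 CPM in shCont and at 8.19, 9.69 and 9.69 in shp16+shATR, and without shCont replicate 1 its log2 fold change was -0.32 and not called (adjusted p = 0.094). Of 14 mitochondrial translation factors, MTRF1, of the release factor family, was lower in shp16 (log2 fold change -0.50 ± 0.14, SE; adjusted p = 0.0364) and was 1 of 2 that were lower in shp16+shATR against shCont (-0.46; 0.0352). No factor was called between shp16+shATR and shp16, where 2 had an unadjusted p under 0.05 in edgeR. Leaving out shCont replicate 1 gave 2 of 14 that were lower there, the elongation factor TUFM (-0.38, adjusted p = 0.00212) and its exchange factor TSFM (-0.40, 0.0149). This stands beside 11.0% of all genes tested that were lower. In that edgeR fit TSFM was higher in shp16 than in shCont (0.52, adjusted p = 0.0062). In shp16+shATR against shCont it was not called (0.12, 0.466), and neither was TUFM (-0.20, 0.0555).

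None of 5 mitochondrial transcription genes and none of the 13 mRNAs encoded by mitochondrial DNA, the templates of this ribosome, was called in any comparison by edgeR with all 9 libraries. At an unadjusted p under 0.05 there were 2, 0 and 0 of the former and none of the latter. In the fit without shCont replicate 1, TFB2M, a mitochondrial transcription factor, was lower (-0.36, adjusted p = 0.0285) and MT-ATP8, at 0.949 to 2.43 CPM over the libraries, higher (0.95, 0.0495) in shp16 than in shCont. Of all genes tested 12.5% were lower and 13.4% higher in that fit. The mitochondrially encoded mRNAs summed to 68370, 49850 and 59440 CPM in shCont, to 77150, 41420 and 41470 in shp16 and to 49330, 43820 and 55700 in shp16+shATR. Both libraries that stood apart had the highest sums, and the groups overlapped.

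Of 10 regulators of mitochondrial gene expression, YY1 was higher in shp16 (log2 fold change 0.40 ± 0.11, SE; adjusted p = 0.0258) and in shp16+shATR (0.39 ± 0.11; 0.0198) than in shCont. ESRRA, an orphan nuclear receptor of mitochondrial biogenesis, was lower in shp16+shATR than in shp16 at -1.31 ± 0.14 (SE; adjusted p = 0.000617) and than in shCont at -0.91 ± 0.14 (0.000782). MYC was lower in shp16+shATR than in shp16 at -0.45 ± 0.12 (SE; adjusted p = 0.0431) and than in shCont at -0.43 ± 0.12 (0.0188). NRF1, GABPA and PPARGC1A, the coactivator PGC-1α, were not called, at -0.29, 0.09 and -0.71 in shp16+shATR against shp16. The last was called when shCont replicate 1 was left out (-0.71, adjusted p = 0.0131). In that edgeR fit 2 of the 10 were higher in shp16 than in shCont, ESRRA among them (0.51, adjusted p = 0.00568). In shp16+shATR against shp16, 5 were lower and 0 higher. Of all genes tested 13.4% were higher in the former and 11.0% lower in the latter.

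Cytosolic ribosomal proteins gave the nearest comparison by function. Of 77 tested, 1 rose (RPS6, log2 fold change 0.54, adjusted p = 0.0236) and 1 fell (RPL26, -0.80, 0.0257) in shp16 against shCont, and none was called in the other 2 comparisons, where edgeR gave 2 and 4 at an unadjusted p under 0.05. The RPL26 row was counted at a low level, with means of 4.8, 2.75 and 3.98 CPM in shCont, shp16 and shp16+shATR. RPS6 had means of 517, 755 and 611 CPM. Over all genes tested 14.8%, 6.22% and 23.6% were called. Their medians were -0.02, -0.10 and -0.11, beside -0.03, -0.09 and -0.18 for the mitochondrial set, and the difference between the sets was not tested. Without shCont replicate 1, 39 cytosolic ribosomal protein genes were higher in shp16 than in shCont and 1 was lower, with a median of 0.27. Over all genes tested 13.4% were higher and 12.5% lower in that fit. In shp16+shATR against shCont 20 were then higher and 1 lower, beside 15.9% and 17.5%, and the median turned from -0.11 to 0.16. Between shp16+shATR and shp16, 2 were lower, beside 11.0% of all genes tested, and the median was -0.09.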

How the data were processed

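RNA-seq libraries were made by the authors from column-cleaned, DNase-treated RNA with the NEBNext Ultra 2 kit. Strand setting and counting tool are not given in the sources used here. The deposited tables hold raw counts per gene and FPKM, which the authors obtained by dividing counts by gene length and library total, as was checked (largest relative difference 4.22e-07). The submitters' processing notes list STAR 2.6.1, DESeq2 2 and GRCh38 without roles, whereas the starts of only 2 of 67 matched members lay within 1000 bases of their GRCh38.p14 starts, and the coordinates are those of GRCh37. Coordinates of genes are printed as deposited, and of promoters in GRCh38.p14.

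Counts were filtered with filterByExpr, scaled by TMM and fitted over all 9 libraries with edgeR 4.0.16 (quasi-likelihood test, R 4.3.3), with Benjamini-Hochberg adjustment over 15776 genes at 0.05 and no batch term. Each standard error was the log2 fold change divided by the square root of its F statistic. The 3 count columns of shp16+shATR share a name and are called a, b and c. By the relation of counts to FPKM above, they correspond to the FPKM columns labelled replicates 1, 2 and 3, in that order. Alternatives used DESeq2 1.42.0, limma 3.58.1 on log2(FPKM + 1) or log2(FPKM + 0.1), upper-quartile or library-size scaling, other filters, only the groups compared, a spline on gene length, a replicate block and omission of each library, and, chosen after seeing the data, of both libraries that stood apart. The edgeR fit was tested on simulated data. The rule for members used symbols and no measured values, but members and lists were chosen with earlier results of these data known. Genes named were MRPL49, up to 6 non-overlapping called rises and falls per comparison, the 5 highest and 5 lowest members in FPKM, members left out by the filter, MRPS36, MRPS18A and MRPS30, the targeted genes, and, of each list, the called gene that moved most each way, with 6 regulators; other genes were named after their values were seen. Promoters came from RefSeq.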

Additional observations from a re-analysis of the deposited data

How the results depend on the processing

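The number of members called depended on the fit more than their median did. The share of all genes tested that was called in the same fit stands in brackets. With no filter on low counts this share is over 30291 genes and the members are 76, against 15776 and 74 in the main fit. In shp16 against shCont, where 2 were called (14.8%), there were 4 with no filter on low counts (9.93%), 1 with only the groups compared (7.83%), 7 with the gene-length trend removed (18.8%), 4 by limma on FPKM with either pseudocount (13.1% and 12.7%), 28 without both libraries that stood apart (32.7%), and 1 to 20 with single libraries left out (8.29% to 25.9%). In shp16+shATR against shp16, where 3 were called (6.22%), there were 5 with no filter (4.39%), 14 with only the groups compared (18.9%), 6 with the length trend removed (9.06%), 19 without both libraries (26.7%), and 0 to 15 with single libraries left out (1.81% to 19.9%). In shp16+shATR against shCont, where 11 were called (23.6%), there were 4 with only the groups compared (19.7%), 17 by limma on log2(FPKM + 1) (22.7%), 33 without both libraries (44.3%), and 2 to 25 with single libraries left out (14.5% to 33.3%). Of the 74 members, 20, 15 and 25 are 27.0%, 20.3% and 33.8%. The causes were not tested.

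The median log2 fold change of shp16 against shCont was 0.12 without both libraries and -0.11 to 0.10 with single libraries left out. That of shp16+shATR against shCont was -0.038 without both and -0.278 to -0.035 with single libraries left out, the highest being without shCont replicate 1. Medians of shp16+shATR against shp16 stayed between -0.13 and -0.05 in all 20 alternatives.

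With a replicate block, 0, 0 and 10 members were called in the 3 comparisons (2.79%, 3.05% and 18.9% of all genes), with 4 and 11 passing an unadjusted 0.05 in the first 2 (edgeR on counts for the first, limma on FPKM for the others). The numbers were not shown to pair the samples, since only 2 of 9 correlations of deviations between same-numbered libraries were over 0.1 (range -0.30 to 0.29). The 16 calls kept their direction in all alternatives and lost significance in 90 of 320.

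With 3 libraries per group the median SE of a member's log2 fold change was 0.15, and a call needed a change of several SE. The smallest called change was that of MRPL19, -0.36 ± 0.11 (SE), in shp16+shATR against shCont. Some larger changes were not called, such as MRPL36 in shp16 against shCont, at -0.58 ± 0.22 (SE; edgeR adjusted p = 0.104).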
